A study of Mus musculus with 8 samples.

Results

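The 10 genes described here encode enzymes that build triglyceride in the liver: the glycerol 3-phosphate acyltransferases Gpam and Gpat4, the lysophosphatidate acyltransferases Agpat2 and Agpat3, the phosphatidate phosphatases Lpin1, Lpin2 and Lpin3, the diacylglycerol acyltransferases Dgat1 and Dgat2, and the monoacylglycerol acyltransferase Mogat1. They were taken by symbol from a count table of 24940 genes, and all 10 were among the 12340 genes that had enough reads to be tested. RNA-seq counts were compared between livers of 4 FxrKO males and 4 Bcl6LKO FxrKO males of the C57BL/6 strain. All 8 mice carried floxed Bcl6 alleles, Bcl6(fl/fl), and were homozygous for a knockout of FXR, the bile acid receptor encoded by Nr1h4, in every cell of the body. The Bcl6LKO FxrKO mice carried Alb-Cre in addition, in which the albumin promoter drives the recombinase and deletes the transcriptional repressor Bcl6 in hepatocytes. The comparison therefore asks what Alb-Cre with hepatocyte Bcl6 loss adds to FXR loss. No mice with Alb-Cre and intact Bcl6 were analysed, so the recombinase and Bcl6 loss cannot be told apart. Livers with intact FXR were not analysed here. The age and feeding state of each mouse are not given in the sources used here. A general statement says that animals were fed freely or fasted for 4 hours. Livers are numbered 1 to 4 within each genotype, and the numbers pair no livers.

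Triglyceride is assembled on a glycerol 3-phosphate backbone mostly in the endoplasmic reticulum. Acyltransferases add fatty acyl chains in turn to give lysophosphatidate and then phosphatidate, lipins remove the phosphate to give diacylglycerol, and diacylglycerol acyltransferases add the last chain. A shorter route starts from monoacylglycerol and is opened by Mogat1, and phosphatidate and diacylglycerol are also the branch points to membrane phospholipids.

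Of the 10 enzymes, 2 fell in Bcl6LKO FxrKO livers, 0 rose and 8 did not pass the test. The enzymes that fell were Gpat4 and Agpat2, which act at the first and at the second acylation. Dgat2, the most abundant transcript of the 10, Dgat1 and Gpam differed little between the genotypes, and Lpin1 had a large fitted difference with a wide spread between livers. The call rested on edgeR's quasi-likelihood test with a threshold of 0.05 on the p-value adjusted over all 12340 tested genes. By that rule 29.7% of all tested genes were called, 16.2% higher and 13.5% lower, so the 2 of 10 called stand below the share of the whole table in either direction and above its share of lower calls by less than 1 gene. The median log2 fold change of the 10 enzymes was -0.07, against 0.01 over all tested genes, and the median absolute log2 fold change was 0.30 against 0.31. The 4 livers of one genotype lay entirely on one side of the other 4 for 2 of the 10 enzymes, again Gpat4 and Agpat2, and for 31.3% of all tested genes.

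**Figure D1:**
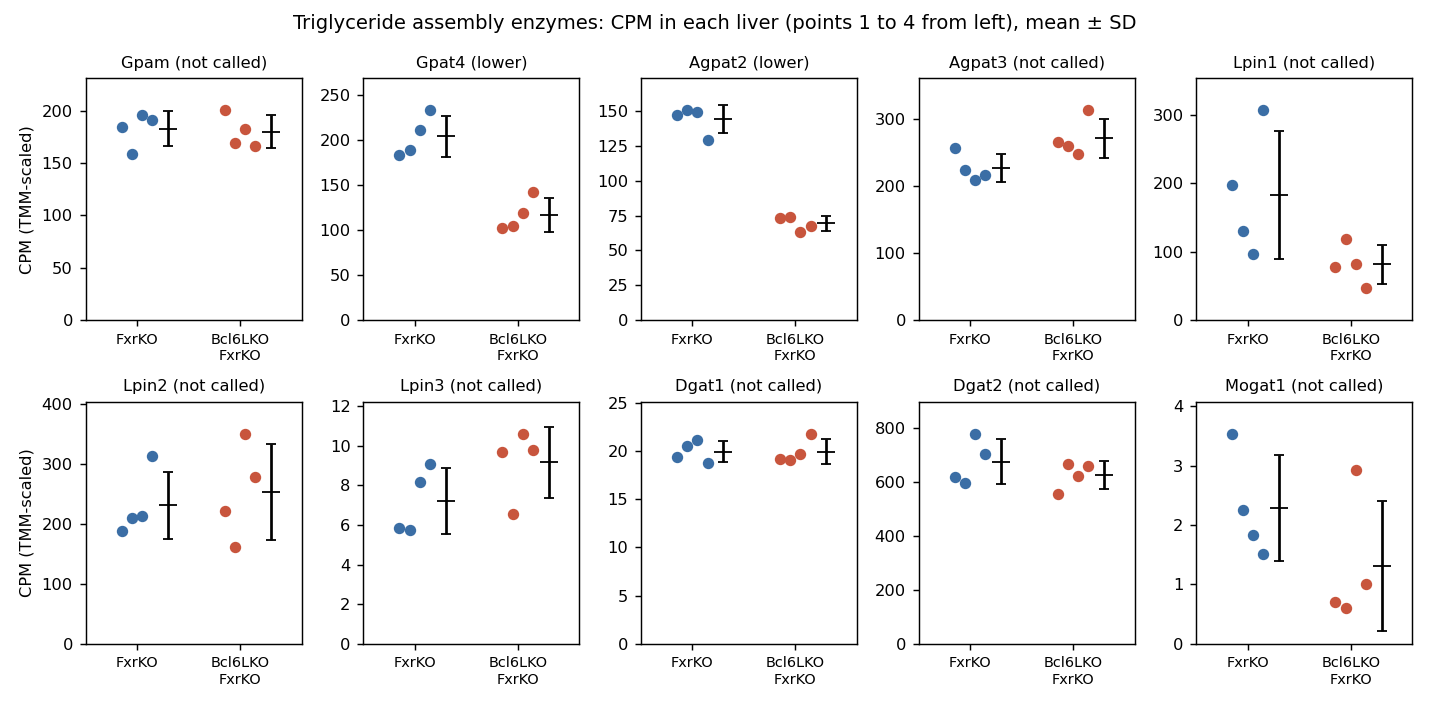
Read counts scaled to library size (CPM, with TMM factors, axes from 0) of each enzyme in each liver, with FxrKO livers in blue, Bcl6LKO FxrKO livers in red and the mean ± SD (n = 4) beside them. The genotypes separate for Gpat4 and Agpat2, while the points of the other 8 enzymes overlap, with the widest relative spread within a genotype for Lpin1 and Mogat1.

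The libraries held between 7586241 and 10056721 counts on genes in FxrKO livers and between 9156775 and 11839503 in Bcl6LKO FxrKO livers, and 3 counts correspond to between 0.253 and 0.395 CPM on the raw totals, which covers counting error only. Livers of one genotype differed from each other by more than sampling noise in each pair (chi-square divided by its degrees of freedom, 10.7 to 49.3). Bcl6 was lower in each Bcl6LKO FxrKO liver (4.61 to 11.9 CPM) than in each FxrKO liver (21.2 to 65.2 CPM), with a log2 fold change of -2.72 (SE 0.40, edgeR adjusted p = 0.00123). Reads on Nr1h4 were counted at 56.7 to 62.6 CPM in FxrKO livers and at 39.4 to 48.1 CPM in Bcl6LKO FxrKO livers, a log2 fold change of -0.46 (SE 0.10, edgeR adjusted p = 0.00497), and no liver with intact FXR was analysed here to set them against. Of 8 listed hepatocyte transcripts, Alb, Ttr, Apoa1, Apoa2 and Serpina1a were at 2031 CPM or more in each liver. Cps1, Tat and Hnf4a fell below that level in some livers, and the lowest value was that of Hnf4a in FxrKO liver 3 (559 CPM). Alb and Apoa2 were called higher in Bcl6LKO FxrKO livers and Ttr was called lower.

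The glycerol 3-phosphate acyltransferase step showed a lower Gpat4 and a level Gpam. Gpat4, an enzyme of the endoplasmic reticulum (NM_018743, mm10 chromosome 8 from 23172946 to 23208453, minus strand, 13 exons), was at 183, 189, 211 and 233 CPM in FxrKO livers 1 to 4 and at 102, 104, 119 and 142 CPM in Bcl6LKO FxrKO livers 1 to 4. The highest Bcl6LKO FxrKO liver was below the lowest FxrKO liver. Gpat4 fell to 0.573 of its FxrKO level, a log2 fold change of -0.80 (SE 0.13, 95% interval -1.09 to -0.52, edgeR adjusted p = 0.000627). An exact two-sided permutation test of log2(CPM + 0.5) over the 70 orderings of the 8 livers gave p = 0.0286, the smallest value it can give.

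Gpam, the acyltransferase of the outer mitochondrial membrane (NM_001356285, chromosome 19 from 55067636 to 55127238, minus strand, 22 exons), was at 185, 159, 196 and 191 CPM in FxrKO livers and at 201, 169, 183 and 166 CPM in Bcl6LKO FxrKO livers. The ranges overlapped almost completely. Its log2 fold change was -0.02 (SE 0.11, 95% interval -0.27 to 0.22, edgeR adjusted p = 0.899), an interval that spans folds from 0.832 to 1.16. The sign of this value was not stable across alternative settings.

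Of the lysophosphatidate acyltransferases, Agpat2 fell and Agpat3 was not called. Agpat2, whose loss causes a congenital lipodystrophy with fatty liver (NM_026212, chromosome 2 from 26593057 to 26604417, minus strand, 6 exons), had the narrowest relative spread of the enzymes that fell. The 250 bases upstream of its counted start, from RefSeq on GRCm38.p6 (mm10), are shown because Agpat2 had the smallest adjusted p of the 10 enzymes. They lie at chr2:26604418-26604667 on the minus strand, outside any annotated exon, and 69.2% of them are G or C.
Agpat2: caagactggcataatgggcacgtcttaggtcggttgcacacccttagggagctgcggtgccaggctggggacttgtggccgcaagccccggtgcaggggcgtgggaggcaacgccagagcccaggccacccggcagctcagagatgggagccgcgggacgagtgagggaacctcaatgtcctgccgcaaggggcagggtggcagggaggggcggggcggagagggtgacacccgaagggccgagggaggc
The window was searched on both strands for TTCNNNGAA, a pattern of STAT and BCL6 binding sites, for the E-box CACGTG, and for TCACNCCAC, the sterol response element, and held none of these 3 letter patterns. Over all 32851 promoters of the RefSeq table, 7.02% held TTCNNNGAA, 6.02% held CACGTG and 1.05% held TCACNCCAC in the same window. Of the 10 enzymes, 7 had an entry in that table, and in the 6 with an entry at the counted start (Gpam, Agpat2, Agpat3, Lpin2, Lpin3 and Mogat1) the number holding any of these patterns was 0. Lpin2 has 1 entry at another start that holds CACGTG.

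Agpat2 was at 147, 151, 150 and 129 CPM in FxrKO livers 1 to 4 and at 73.4, 73.9, 62.9 and 67.5 CPM in Bcl6LKO FxrKO livers 1 to 4. The groups did not overlap, and the lowest FxrKO liver, number 4, was still well above each Bcl6LKO FxrKO liver. Agpat2 fell to 0.481 of its FxrKO level (95% interval 0.411 to 0.564), a log2 fold change of -1.06 (SE 0.11, edgeR adjusted p = 1.06e-05; exact two-sided permutation p = 0.0286). In the annotation, 64 of the 1489 exonic bases of its matched transcript are shared with exons of Egfl7 on the opposite strand, and the counting command names no strand. Egfl7, an endothelial secreted factor, was at 13.7 to 18.3 CPM in FxrKO livers and 16.0 to 29.4 CPM in Bcl6LKO FxrKO livers, well below Agpat2 in each liver. The counted Egfl7 transcript (chromosome 2 from 26583864 to 26592682) ends short of the counted Agpat2 transcript. These values therefore do not measure reads in the shared bases.

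Agpat3, which favours polyunsaturated acyl chains (NM_053014, chromosome 10 from 78271563 to 78351700, minus strand, 10 exons), was at 257, 224, 210 and 217 CPM in FxrKO livers and at 265, 260, 248 and 314 CPM in Bcl6LKO FxrKO livers. FxrKO liver 1 lay above Bcl6LKO FxrKO liver 3, so the groups overlapped by that 1 liver. The log2 fold change was 0.26 (SE 0.12, 95% interval 0.01 to 0.51), and it did not pass the threshold (edgeR adjusted p = 0.111; exact two-sided permutation p = 0.0571). The 95% intervals here and below are not adjusted for the number of genes tested.

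The 3 lipins were not called. Lpin1, a phosphatidate phosphatase that is induced by fasting and glucocorticoids and also acts in the nucleus with PPAR alpha (NM_015763, chromosome 12 from 16535669 to 16589770, minus strand, 21 exons), was at 197, 130, 96.4 and 307 CPM in FxrKO livers and at 78.1, 118, 81.8 and 47.2 CPM in Bcl6LKO FxrKO livers. Bcl6LKO FxrKO liver 2 exceeded FxrKO liver 3, and the other livers of the genotypes were apart. The coefficient of variation was 50.9% among FxrKO livers and 35.6% among Bcl6LKO FxrKO livers, against 5.51% to 39.0% and 6.44% to 83.2% for the other 9 enzymes.

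The log2 fold change of Lpin1 was -1.17 (SE 0.40, 95% interval -2.11 to -0.24, edgeR adjusted p = 0.0625; exact two-sided permutation p = 0.0571). DESeq2 called it (adjusted p = 0.0322), as did edgeR on total counts alone (adjusted p = 0.0335). Lpin1 was called as well by limma voom with sample quality weights (log2 fold change -0.93, adjusted p = 0.0323). It was also called by edgeR without FxrKO liver 3 (log2 fold change -1.39, adjusted p = 0.0217) and without Bcl6LKO FxrKO liver 2 (-1.41, adjusted p = 0.0468), the 2 livers in which the genotypes met. Leaving out each of the 8 livers in turn gave values from -1.41 to -0.80, and the smallest of these differences came without FxrKO liver 4, the liver with the highest Lpin1.

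Values of 15 tested clock genes are given beside Lpin1, which is known to vary with feeding and time of day. Their coefficients of variation ran from 10.9% (Cry2) to 92.0% (Ciart) among FxrKO livers, with a median of 31.4%, and from 13.8% (Nr1d1) to 114.9% (Arntl) among Bcl6LKO FxrKO livers, with a median of 42.2%. Per2 and Ciart are shown as examples picked after their values were seen. Per2, a clock repressor, was at 15.7, 15.4, 36.8 and 44.8 CPM in FxrKO livers and at 3.73, 8.62, 15.1 and 10.4 CPM in Bcl6LKO FxrKO livers. Ciart, another clock repressor, was at 5.72, 6.998, 23.4 and 46.4 CPM and at 0.806, 3.28, 8.08 and 8.99 CPM. FxrKO liver 4 was the highest FxrKO liver for Lpin1, Per2 and Ciart, while FxrKO liver 3 was the lowest for Lpin1 and the second highest for Per2 and Ciart. Over the 15 clock genes the highest FxrKO liver was liver 4 for 8, liver 1 for 3 and livers 2 and 3 for 2 each. Clock genes peak at different times of day, so this tally cannot order the livers by time. Of these genes, 0 were called higher and 2 lower (Per2 and Hlf), beside 16.2% and 13.5% of all tested genes. The 2 lower calls are 13.3% of the list, near the share of the whole table. The clock genes had a median log2 fold change of -0.31, against 0.01 over all tested genes, a value that pools genes with different peak times. Their part in the Lpin1 values was not tested.

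Lpin2, the lipin with the highest level per deposited length in 6 of the 8 livers (NM_001164885, chromosome 17 from 71204654 to 71249818, plus strand, 20 exons), was at 188, 210, 213 and 314 CPM in FxrKO livers and at 222, 162, 351 and 278 CPM in Bcl6LKO FxrKO livers. The lowest and the highest of the 8 values were both from Bcl6LKO FxrKO livers. Its log2 fold change was 0.13 (SE 0.23, 95% interval -0.37 to 0.63, edgeR adjusted p = 0.70), and the sign turned on total counts alone (-0.02) and without Bcl6LKO FxrKO liver 3 (-0.07). Lpin3, a lipin best known from the intestine (NM_001199118, chromosome 2 from 160888168 to 160906000, plus strand, 20 exons), was at 5.83, 5.75, 8.17 and 9.08 CPM in FxrKO livers and at 9.67, 6.55, 10.6 and 9.81 CPM in Bcl6LKO FxrKO livers. Only Bcl6LKO FxrKO liver 2 fell within the FxrKO range, and the log2 fold change of 0.35 (SE 0.21, 95% interval -0.10 to 0.79) did not pass (edgeR adjusted p = 0.228).

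The last acylation did not differ detectably. Dgat2, which favours newly made fatty acids (NM_026384, chromosome 7 from 99153663 to 99182713, minus strand, 8 exons), was at 617, 597, 779 and 704 CPM in FxrKO livers and at 556, 666, 620 and 660 CPM in Bcl6LKO FxrKO livers. The log2 fold change was -0.11 (SE 0.12, edgeR adjusted p = 0.547), and its 95% interval spanned folds from 0.771 to 1.117. Dgat1, an unrelated enzyme of the same reaction (NM_010046, chromosome 15 from 76502012 to 76511994, minus strand, 17 exons), was at 19.4, 20.5, 21.2 and 18.7 CPM in FxrKO livers and at 19.1, 19.1, 19.7 and 21.8 CPM in Bcl6LKO FxrKO livers. Its means were 19.9 ± 1.10 and 19.9 ± 1.28 CPM (SD, n = 4 each), and the 95% interval of the fold ran from 0.835 to 1.20. These intervals leave room for changes of that size in either direction.

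Mogat1, the entry enzyme of the monoacylglycerol route (NM_026713, chromosome 1 from 78511060 to 78538173, plus strand, 6 exons), was the least abundant member, with 34, 18, 17 and 16 counts in FxrKO livers and 7, 5, 30 and 11 counts in Bcl6LKO FxrKO livers. In CPM these were 3.54, 2.25, 1.83 and 1.51 against 0.705, 0.607, 2.92 and 0.999. Bcl6LKO FxrKO liver 3 stood above 3 of the 4 FxrKO livers, while the other Bcl6LKO FxrKO livers were below all of them. The log2 fold change was -0.77 (SE 0.46, 95% interval -1.78 to 0.24, edgeR adjusted p = 0.234). Without Bcl6LKO FxrKO liver 3 it was -1.52 and was called (edgeR adjusted p = 0.0152), so that 1 library decided the call. Mogat1 passed the filter on low counts through the FxrKO livers, the group in which it was high, so the call in that fit is a description only. In the annotation, 189 of the 1178 exonic bases are shared with an opposite-strand gene, BC035947, whose counts were not used here.

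**Figure D2:**
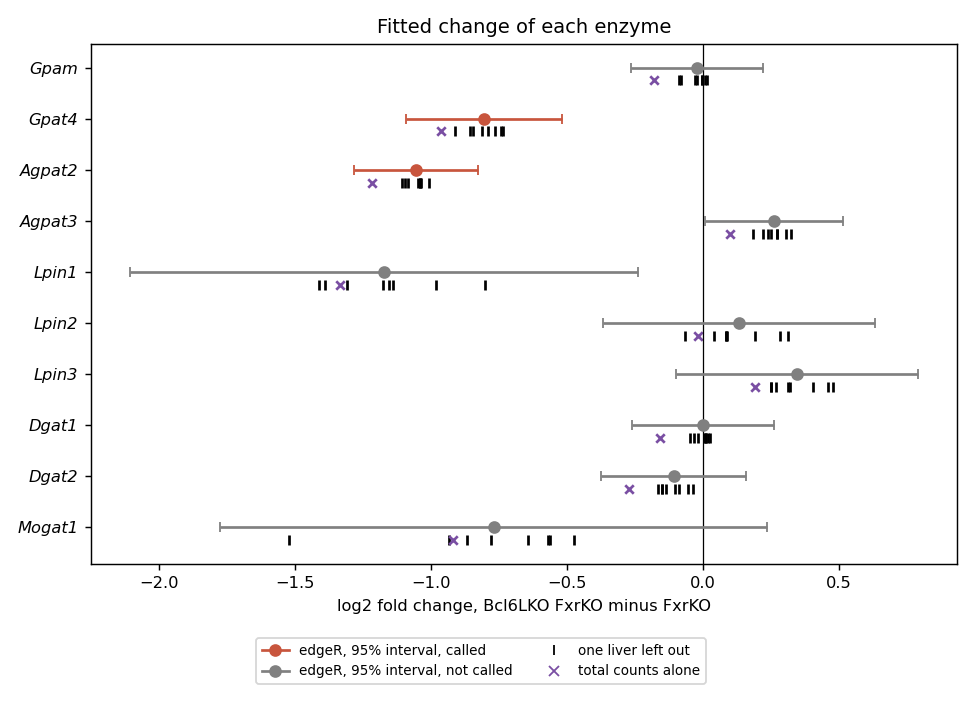
Fitted log2 fold change (x axis, Bcl6LKO FxrKO minus FxrKO) of each enzyme with its 95% interval, red where called, with ticks for the fits that leave out 1 liver and a cross for scaling by total counts alone. Gpat4, Agpat2, Lpin1, Dgat2 and Mogat1 stayed below 0 in all these fits, and Agpat3 and Lpin3 stayed above 0. The intervals of Lpin1 and Mogat1 were the widest.

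To compare levels between genes, CPM were divided by the deposited transcript length in kilobases (RPKM). In FxrKO livers the order of mean RPKM was Dgat2 (301), Agpat2 (92.1), Agpat3 (66.2), Gpat4 (51.9), Lpin2 (40.2), Lpin1 (32.9), Gpam (29.3), Dgat1 (10.4), Lpin3 (2.14) and Mogat1 (1.91). The ranges of Gpat4 and Lpin2, of Lpin2 and Lpin1, of Lpin1 and Gpam, and of Lpin3 and Mogat1 overlapped, so these neighbours did not differ beyond their spread. In Bcl6LKO FxrKO livers Dgat2 (279) again led, followed by Agpat3 (79.3), Agpat2 (44.3), Lpin2 (44.1), Gpat4 (29.7), Gpam (28.9), Lpin1 (14.6), Dgat1 (10.4), Lpin3 (2.72) and Mogat1 (1.09). Agpat2 and Agpat3 changed places, with ranges that did not overlap in either genotype, and Gpat4 moved from above Gpam to overlap with it. The order rests on the deposited lengths, and for some genes the annotated transcript has another length (3929 bases deposited and 5518 exonic bases annotated for Gpat4, and 5743 and 4167 for Lpin2).

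The make-up of each step was described by the share of each isozyme in the summed RPKM of the step, with no test. At the second acylation Agpat2 made up 52.6% to 57.3% of the step in FxrKO livers and 29.9% to 35.3% in Bcl6LKO FxrKO livers. Agpat3 made up 36.8% to 41.9% and 56.7% to 63.6%. The ratio of Agpat2 to Agpat3 was thus between 1.25 and 1.56 in FxrKO livers and between 0.470 and 0.622 in Bcl6LKO FxrKO livers. The summed RPKM of the step was 155.5 to 178.9 in FxrKO livers and 120.9 to 144.1 in Bcl6LKO FxrKO livers, without overlap.

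At the first acylation Gpat4 made up 58.2% to 63.1% of the step in FxrKO livers and 38.3% to 48.3% in Bcl6LKO FxrKO livers. Gpat3, a further acyltransferase of the endoplasmic reticulum that is not among the 10 enzymes, made up 2.85% to 3.95% and 8.02% to 15.9%. Its level was 9.05, 6.25, 8.81 and 7.95 CPM in FxrKO livers and 22.3, 13.6, 33.3 and 29.4 CPM in Bcl6LKO FxrKO livers, and it rose by a log2 fold change of 1.62 (SE 0.25, edgeR adjusted p = 0.000415). The ratio of Gpam to Gpat4 was 0.517 to 0.637 in FxrKO livers and 0.737 to 1.24 in Bcl6LKO FxrKO livers. The summed RPKM of this step was 76.6 to 94.0 and 59.2 to 75.1, without overlap but with a narrow gap. The shares and sums of this step rest on the deposited length of Gpat4, 3929 bases, against 5518 exonic bases annotated. They were not recomputed with the annotated length, so the separation of the sums holds for the deposited length only.

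The lipin step was more variable, with Lpin1 at 30.5% to 50.8% of the step in FxrKO livers and 14.2% to 41.3% in Bcl6LKO FxrKO livers. The lipin shares and sums rest on the deposited length of Lpin2, 5743 bases, against 4167 exonic bases annotated, and were not recomputed. Dgat2 made up 96.1% to 97.0% of the final step in FxrKO livers and 96.1% to 96.8% in Bcl6LKO FxrKO livers, and the ratio of Dgat2 to Dgat1 was 24.9 to 32.1 and 24.8 to 29.9. The summed RPKM of the lipin and of the final step overlapped between the genotypes.

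**Figure D3:**
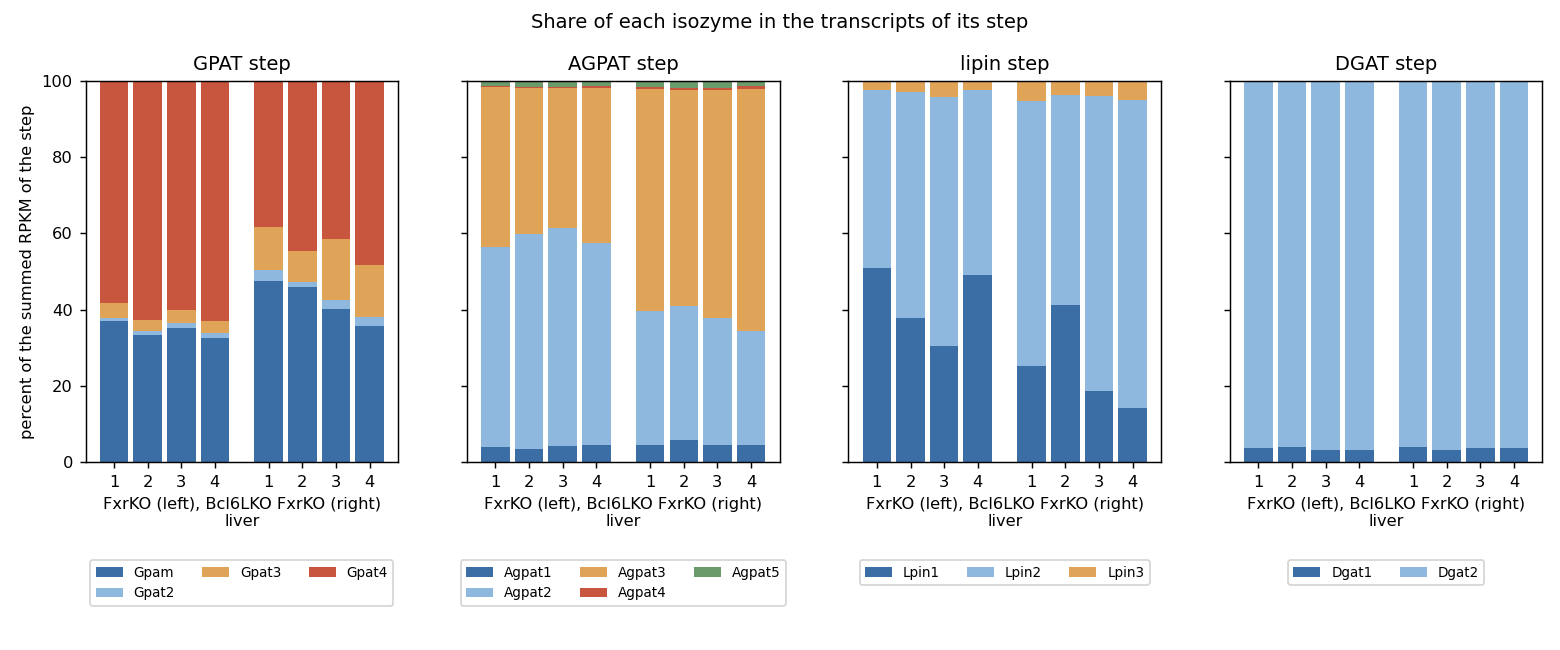
Share of each isozyme in the summed RPKM of its step (y axis, 0 to 100%) in each liver, with FxrKO livers 1 to 4 on the left and Bcl6LKO FxrKO livers 1 to 4 on the right of each panel. Agpat2 has the larger share on the left and Agpat3 on the right of the AGPAT panel. Gpat4 is smaller and Gpat3 larger on the right of the GPAT panel, and the DGAT panel is almost level.

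The genes around the pathway were counted from fixed lists, each to be read against the 16.2% of tested genes called higher and 13.5% called lower. Of 6 tested genes of glycerol 3-phosphate supply and use, 1 rose and 3 fell. Gpd1, which makes glycerol 3-phosphate in the cytosol, fell by 0.48 on the log2 scale (edgeR adjusted p = 0.012), as did Gpd2, its mitochondrial counterpart that consumes it (by 0.42, edgeR adjusted p = 0.0159) and the glycerol channel Aqp9 (by 0.46, edgeR adjusted p = 0.0158). The 1 higher call, the glycerol channel Aqp7, had 3, 3, 7 and 1 counts in FxrKO livers and 39, 12, 51 and 51 counts in Bcl6LKO FxrKO livers. It passed the filter on low counts through the group in which it was high, and it was not tested when each liver had to hold 10 counts. The call of Aqp9 was lost without FxrKO liver 4. Of 7 tested isozymes of the same steps outside the 10 enzymes, 1 rose, Gpat3, and 0 fell, and 2 were called higher without Bcl6LKO FxrKO liver 2.

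The branches that draw on phosphatidate and diacylglycerol had 7 genes called higher and 4 lower of 20 tested. Chpt1, which joins diacylglycerol to phosphocholine to make phosphatidylcholine, was at 158 to 185 CPM in FxrKO livers and 37.9 to 61.1 CPM in Bcl6LKO FxrKO livers and fell by 1.81 (edgeR adjusted p = 1.41e-06). The ethanolamine kinases Etnk1 and Etnk2 fell by 0.57 (edgeR adjusted p = 0.00367) and 0.51 (edgeR adjusted p = 0.0268). Pcyt1a, the rate-limiting enzyme of the CDP-choline route, rose by 0.66 (edgeR adjusted p = 0.0056), and Pemt, which methylates phosphatidylethanolamine to phosphatidylcholine, rose by 0.56 (edgeR adjusted p = 0.00372). Plpp2, a lipid phosphate phosphatase, rose by 1.06 (edgeR adjusted p = 0.00011). Etnk2 lost its call without FxrKO liver 3 or 4 or Bcl6LKO FxrKO liver 1 or 3, and the number called lower was 2 without FxrKO liver 3, without FxrKO liver 4 or without Bcl6LKO FxrKO liver 3.

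Of 4 tested acyl-CoA ligases, which activate fatty acids before they are esterified, Acsl5 rose by 0.54 (edgeR adjusted p = 0.00394) and Acsl1 fell by 0.60 (edgeR adjusted p = 0.00464). Of 13 genes tied to triglyceride breakdown, 3 rose and 6 fell. The carboxylesterases Ces3a and Ces3b, close paralogs counted only from reads with 1 location, fell by 2.33 (edgeR adjusted p = 5.06e-07) and 5.04 (edgeR adjusted p = 0.00147), and hormone-sensitive lipase, Lipe, fell by 0.99 (edgeR adjusted p = 0.000857). Pnpla3, a droplet-bound protein with lipase and acyltransferase activity, rose by 2.21 (edgeR adjusted p = 0.01), Hilpda, an inhibitor of adipose triglyceride lipase, rose by 1.13 (edgeR adjusted p = 0.00868), and Abhd5, the activator of that lipase, rose by 0.43 (edgeR adjusted p = 0.0481) with genotypes that overlapped. The call of Abhd5 was lost in 5 of the 8 fits with 1 liver left out (without FxrKO liver 2, 3 or 4 or Bcl6LKO FxrKO liver 1 or 2) and in 3 other alternatives, total counts alone among them.

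Droplet and lipoprotein genes had 2 members called higher and 2 lower of 12 tested. Tm6sf2, which aids the lipidation of very low density lipoprotein, rose by 1.28 (edgeR adjusted p = 0.000148) and the droplet coat protein Plin3 rose by 0.75 (edgeR adjusted p = 0.000847). Cideb and Apob, which act in lipoprotein loading, fell by 0.39 (edgeR adjusted p = 0.0248) and 0.45 (edgeR adjusted p = 0.0448). Apob lost its call in 7 of the 8 fits with 1 liver left out, all but that without Bcl6LKO FxrKO liver 2, and Cideb in 4 (without FxrKO liver 1, 2 or 3 or Bcl6LKO FxrKO liver 3). Apob also lost it when each liver had to hold 10 counts. The number of genes in the list called lower was between 0 and 3 in the fits with 1 liver left out. It was 3 with DESeq2 and 5 with limma voom or on total counts alone. Of 11 regulators of triglyceride synthesis, 0 rose and 3 fell. Mlxipl, the carbohydrate response factor, fell by 1.08 (edgeR adjusted p = 0.000485), the fatty acid receptor Ppara fell by 0.99 (edgeR adjusted p = 0.00104), and Insig2, which retains sterol regulatory proteins in the endoplasmic reticulum, fell by 0.88 (edgeR adjusted p = 0.0442). The call of Insig2 was lost in 5 of the 8 fits with 1 liver left out, those without FxrKO liver 1 or 2 or Bcl6LKO FxrKO liver 2, 3 or 4. It was also lost with no filter on low counts.

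**Figure D4:**
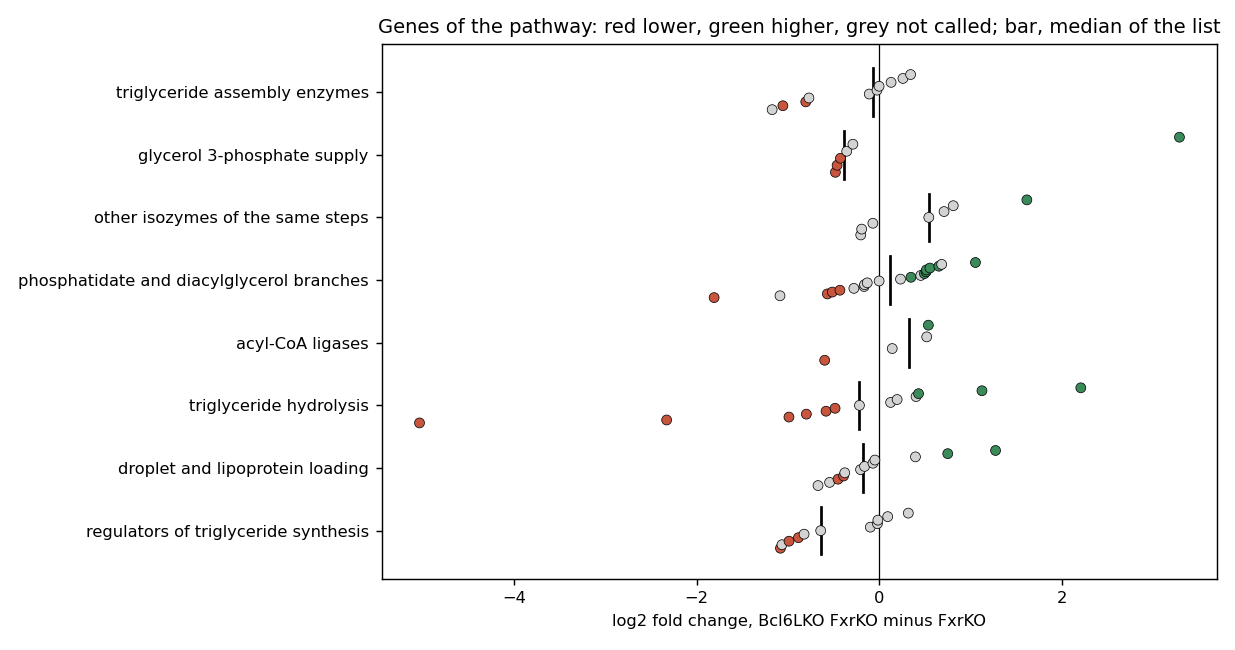
Log2 fold change (x axis, Bcl6LKO FxrKO minus FxrKO) of each tested gene of the 10 enzymes and of the surrounding lists (rows), red where called lower, green where called higher and grey where not called, with a bar at the median of each list. Calls stand on both sides of 0 in 5 of the 8 rows, and the 10 enzymes and the regulators have calls on the lower side alone.

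These are whole livers, so a lower level in fewer cells and less RNA per cell cannot be told apart. The counts of marker calls are to be read against the 16.2% of all tested genes called higher and 13.5% called lower. Of 8 hepatocyte markers, 2 were called higher and 1 lower, with a summed level of 59590 to 73020 CPM in FxrKO livers and 155200 to 169100 CPM in Bcl6LKO FxrKO livers that is carried by Alb. Markers of stellate cells and fibroblasts were called higher in 7 of 10 and lower in 0, with sums of 231 to 327 and 468 to 586 CPM. Macrophage markers were called higher in 2 of 9, with sums of 358 to 510 and 510 to 840 CPM, cholangiocyte markers in 2 of 4 tested, with sums of 42.0 to 66.8 and 75.5 to 134.6 CPM, and sinusoidal endothelial markers in 1 of 7, with sums of 155.0 to 218.7 and 201 to 267 CPM. T cell markers summed to 1.5 to 2.36 and 4.33 to 6.36 CPM, and 0 of them had enough reads to be tested. The adipocyte markers Adipoq, Lep, Plin1, Retn and Cidea had at most 3 counts in every liver, and of the 3 tested adipocyte genes 0 were called higher and 2 lower, with sums of 31.0 to 49.97 and 20.9 to 28.6 CPM. The part of the other cell types in the levels of the 10 enzymes was not tested.

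Of 10 feeding-induced genes, 2 were called higher (Pnpla3 and Thrsp) and 2 lower (Scd1 and Me1), beside the 16.2% and 13.5% of all tested genes. Their summed level was 7509 to 11940 CPM in FxrKO livers and 3434 to 4450 CPM in Bcl6LKO FxrKO livers, most of it Scd1, a fatty acid desaturase. Srebf1, which encodes the sterol regulatory protein that drives lipogenic genes and stands in the feeding list, was at 98.3, 139, 230 and 246 CPM in FxrKO livers and at 102, 70.3, 147 and 83.1 CPM in Bcl6LKO FxrKO livers, and was not called (edgeR adjusted p = 0.094). The part of feeding state in the levels of the 10 enzymes was not tested.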

How the data were processed

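Liver RNA of 4 FxrKO and 4 Bcl6LKO FxrKO males was sequenced with a stranded poly(A) kit as 100-base single-end reads. The authors aligned them to mm10 with STAR 2.5.2 (1 location, at most 4 mismatches). The counts the authors deposited are raw exon read numbers from HOMER 4.10, with 1 transcript per gene, its length in a separate column and no strand named.

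The deposited counts were fitted in R 4.3.3 with edgeR 4.0.16 (filterByExpr, TMM, robust quasi-likelihood, Benjamini-Hochberg over 12340 genes). CPM used the TMM factors. SEs were the absolute log2 fold change over the root of F. Exact permutation tests were run with SciPy 1.17.1. The study's tool, DESeq2 (1.42.0), limma voom (limma 3.58.1), other scalings, filters and each liver left out were alternatives.

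The 10 genes and the lists were chosen with earlier results of these data known. Within each list, up to 3 called genes per direction with the smallest adjusted p are named, beside the 10 enzymes. State and marker genes were named after their values were seen. A list of fasting-induced genes is not reported here. Litter, cage and collection date are not given in the sources used here. The p-values treat each liver as independent, which could not be checked. Exon numbers and overlaps are from GENCODE M21, promoters from RefSeq.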

Additional observations from a re-analysis of the deposited data

Results flagged for a closer look

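In 32 groups of 4 livers (10 enzymes and 6 ratios in each genotype), 3 had 1 liver apart from the other 3 by Dixon's test, and chance gives about 5% of groups. Agpat2 in FxrKO liver 4 was at 129 CPM against 147 to 151 in the other FxrKO livers, a gap of 0.833 of the range. Without that liver the log2 fold change of Agpat2 was -1.11. Mogat1 in Bcl6LKO FxrKO liver 3 was at 2.92 CPM against 0.607 to 0.999, a gap of 0.831 of the range, and its ratio to Dgat2 in RPKM was 0.00882 against 0.00171 to 0.00283, a gap of 0.842. The last 2 share the same Mogat1 counts and are 1 observation, on 30 counts in that liver and 5 to 11 in the others.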

How the results depend on the processing

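Gpat4 and Agpat2 were called lower in the main test and in 15 of 15 alternatives (log2 fold changes of -0.96 to -0.74 and -1.22 to -1.01), and both passed a fold threshold of 0.5 on the log2 scale. The number of the 10 enzymes called lower was 2 or 3 and the number called higher 0 throughout. The third was Lpin1 with DESeq2, limma voom, total counts alone, without FxrKO liver 3 and without Bcl6LKO FxrKO liver 2, and Mogat1 without Bcl6LKO FxrKO liver 3. Scaling by total counts alone shifted the log2 fold changes of all genes by a median of -0.16 and moved the genes called to 1404 higher and 2949 lower (32.3% higher, against 54.5% with TMM, 1994 and 1665), by its construction without factors. The sign turned for enzymes near 0. Gpam was at 0.0433 with limma voom, Lpin2 at -0.0177 on total counts alone and Dgat1 at 0.021 when each liver had to hold 10 counts or more. With 1 liver left out, Gpam ranged from -0.0891 to 0.0133 (above 0 without FxrKO liver 3 or Bcl6LKO FxrKO liver 4), Lpin2 from -0.0657 to 0.3131 (below 0 without Bcl6LKO FxrKO liver 3) and Dgat1 from -0.0462 to 0.0255 (above 0 without FxrKO liver 2 or 3 or Bcl6LKO FxrKO liver 1, 2 or 3). Of 26 pathway genes named outside the 10 enzymes, 20 were called in each fit that tested them, and Aqp9, Etnk2, Abhd5, Cideb, Apob and Insig2 were not. Of the lists, 5 genes of glycerol 3-phosphate supply and use were lower on total counts alone. With DESeq2 5 regulators were lower, and with limma voom 2 acyl-CoA ligases were higher. Mogat1, Aqp7 and Hilpda were not tested under the 10-count filter. No paired analysis was possible because the labels give no pairs. Mogat1 rests on 5 to 34 counts per liver and passed the filter on low counts through the FxrKO livers, in which it was high. The cause of these changes was not tested.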
